A study of Drosophila melanogaster with 18 samples.

Results

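Mitochondrial ribosomal protein genes are nuclear genes whose products are imported into mitochondria, where they assemble with the ribosomal RNAs of the mitochondrial genome into a ribosome of a large and a small subunit. That ribosome makes the few respiratory chain subunits that the mitochondrial genome still encodes. Part of its proteins have bacterial counterparts, and the others exist in mitochondria alone. TFAM, the protein that was overexpressed here, packages mitochondrial DNA and takes part in starting its transcription, so the mitochondrial ribosome acts on the transcripts that TFAM helps to make. More TFAM need not mean more of them, as the study states that ubiquitous TFAM overexpression lowers mitochondrial gene expression in Drosophila.

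The genes were chosen by name, as the probe sets of the Affymetrix Drosophila Genome 2.0 array with 1 gene symbol that begins with mRpL (large subunit) or mRpS (small subunit). This gave 69 of the 11981 genes that the array names singly, on 71 of the 18769 probe sets tested, 45 probe sets with mRpL symbols and 26 with mRpS symbols. The genes mRpS11 and mRpL47 have 2 probe sets each. The RefSeq gene table lists 73 genes with such symbols, and the 4 without a probe set of their own, mRpS10, mRpL34, mRpL37 and mRpL53, were not analysed here. The rule used symbols and no signals, but earlier results of these data were known when it was set.

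RNA came from the whole central nervous system of wandering larvae of the last instar, with 20 larvae pooled for each of 18 arrays. All larvae carried the nSyb-Gal4 driver, which is active in neurons. The 6 genotypes, with 3 arrays each, were TFAM overexpression with Pnt RNAi (UAS-TFAM3M with UAS-Pnt RNAi JF02227), TFAM overexpression with Aop RNAi (UAS-TFAM3M with UAS-Aop RNAi 3166R1), TFAM overexpression alone (TFAM o/e), Pnt RNAi alone, Aop RNAi alone, and a control with the driver and no UAS transgene. Pnt and Aop are ETS transcription factors that act downstream of Ras and ERK, in the canonical view as an activator and a repressor. The study, partly from these same arrays, concluded that both promote this signalling in motor neurons. Each knock-down rests on 1 RNAi line, so line and knock-down cannot be told apart, and the control carried no UAS insertion. Glia, neural stem cells and attached tissue contribute RNA in which the driver is not active. In such RNA, fewer cells of a type and less RNA per cell cannot be told apart.

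The deposited values are log2 signals, and a difference of 1 on this scale is a 2-fold difference. The TFAM probe set averaged 12.15 ± 0.38 in TFAM o/e, Pnt RNAi, 12.10 ± 0.08 in TFAM o/e, Aop RNAi and 12.08 ± 0.04 in TFAM o/e, against 10.45 ± 0.06 in Pnt RNAi, 10.63 ± 0.25 in Aop RNAi and 10.58 ± 0.15 in the control (SD, n = 3 each). The pnt probe set went against its label, with 9.49 ± 0.16 in the arrays labelled Pnt RNAi and 8.44 ± 0.42 in the control (SD, n = 3 each), and the aop probe set had 10.70 ± 0.19 in the arrays labelled Aop RNAi and 10.68 ± 0.05 in the control (SD, n = 3 each), a log2 difference of 0.03 with a 95% interval of -0.30 to 0.35. Genotypes are therefore named as labelled, and in these arrays every direction for a knock-down rests on its label. Outside the arrays, the study stained eye discs with the GMR-Gal4 driver and found PntP2 and Aop protein nearly lost with these same RNAi lines. That is another tissue and driver, and protein in place of RNA. Neuronal markers were mixed in signal. On their 12 probe sets means over the 18 arrays reached 11.92 (elav), but VGlut had 4.42 and 2.64. In each genotype 4 or 5 of the 12 had means under log2 5. The 6 glial markers found had means from 9.31 (moody) to 12.23 (alrm), with repo at 11.74. Markers of fat body, salivary gland and ring gland were also present and varied between arrays. The third control array stood apart in the 3' minus 5' signal of the array's RNA quality probes, at 3.19 against 0.99 to 2.14 on the other 17 arrays.

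All 71 member probe sets had clear signals, with no value under log2 7.91 in any array. Their means over the 18 arrays ran from 8.37 to 12.57 with a median of 10.46, where the median over all probe sets tested was 5.14. The 5 probe sets of highest signal were mRpS7 (12.57), mRpS21 (11.84), mRpS5 (11.79), mRpL33 (11.67) and mRpL44 (11.62), and the 5 of lowest signal were mRpS18C (8.37), mRpL48 (9.21), mRpS2 (9.44), mRpL21 (9.68) and mRpL40 (9.75). These are levels of probe sets, which differ in how well they bind their transcript, so their order is not an order of the genes. The spread between replicate arrays was small, with a median SD of 0.19 within genotypes for the members and 0.21 for the 6124 probe sets of the same range of signal. It was smallest for mRpL41 (SD 0.10) and largest for mRpS17 (SD 0.44), mRpS25 (SD 0.35) and mRpL2 (SD 0.30).

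TFAM overexpression gave no call among the members and small differences throughout. Compared with the control, 0 of 71 members passed an adjusted p of 0.05 (limma, Benjamini-Hochberg over all probe sets tested), where 0.181% of all probe sets did. At an unadjusted p under 0.05 the count was also 0 of 71, against 5.53% of all probe sets. The median member difference was -0.02 and that of all probe sets -0.03. For 65 of the 71 members the 95% interval of the difference lay within 1.5-fold in either direction. The sign of this median was not stable. With 1 array left out it ran from -0.10 (without the second control array) to 0.03 (without the first), with 0.01 without the third. It was 0.08 with every array centred on its own median, which moved the median of all probe sets by 0.10. The array medians were 5.03 to 5.56, far below the members' signals, so here and below this centring follows probe sets of low signal. Centring on brighter probe sets was not tested.

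The same question was asked in the knock-down backgrounds, with arrays of their own. With Pnt RNAi in both genotypes, TFAM overexpression gave a median member difference of 0.09, and 57 of 71 members were above 0, where 48.9% of all probe sets were. Of the 6124 probe sets of the members' range of signal, 37.4% were above 0. With centred arrays the median was 0.04, and 36.6% of members were below 0 in place of 19.7%. With Aop RNAi in both, the median was 0.08 (0.19 with centred arrays) and again 57 members were above 0, where 44.8% of all probe sets were. In the members' range of signal 48.0% were. With Aop RNAi that median lay between -0.01 and 0.19 when 1 array of TFAM o/e, Aop RNAi was left out, the lowest without the first and the highest without the third. In the Pnt RNAi background 0 of 71 members passed an adjusted p of 0.05 (limma, all probe sets 0.139%), and in the Aop RNAi background 0 of 71 did (limma, all probe sets 0.208%). At an unadjusted p under 0.05 there were 5 members in the first (all probe sets 6.26%), with mRpL27 at 0.51, mRpS28 at 0.40, mRpS16 at 0.37, mRpS18A at 0.26 and mRpS30 at -0.32, and 0 in the second (all probe sets 4.42%). The groups did not overlap upward for 6 of 71 members with Pnt RNAi, close to the 6.83% of all probe sets that did so.

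Averaged over the 3 backgrounds, the effect of TFAM overexpression had a median of 0.05 over the members, with quartiles at -0.01 and 0.12, and all 71 intervals lay within 1.5-fold. The median over all probe sets was -0.03. Again 0 of 71 members passed the adjusted test (limma, all probe sets 0.543%), and 2 of 71, mRpL27 and mRpS5, had an unadjusted p under 0.05 (all probe sets 7.64%). The direction was the same in all 3 backgrounds for 20 members, each of them higher, and 0 members were lower in all 3, while 12% of all probe sets were higher and 16.9% lower in all 3. No member had groups free of overlap with the same sign in all 3 (0 of 71, all probe sets 0.357%). These shares are descriptions, since members varied together from array to array.

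The largest average difference upward belonged to mRpL27, the counterpart of a bacterial protein that reaches into the peptidyl transferase centre. It had 11.12, 10.91 and 10.55 in TFAM o/e, Pnt RNAi, against 10.16, 10.37 and 10.52 in Pnt RNAi alone. In TFAM o/e, Aop RNAi it had 11.46, 10.82 and 10.78, against 11.07, 10.84 and 10.44 in Aop RNAi, and in TFAM o/e alone 10.93, 11.00 and 10.71, against 10.91, 10.53 and 10.89 in the control. The groups were apart in the Pnt RNAi background and overlapped in the other 2 backgrounds. The average difference was 0.28 ± 0.12 (SE, limma adjusted p = 0.54), with a 95% interval of 0.04 to 0.53. After it came mRpS25 at 0.18 (adjusted p = 0.85), the first probe set of mRpL47 at 0.18 (adjusted p = 0.74), mRpS2 at 0.17 (adjusted p = 0.74) and mRpS28 at 0.16 (adjusted p = 0.77), all by limma. Without the third control array mRpL27 was still highest, at 0.30, while mRpS25 had 0.06. At the other end were mRpL48 at -0.15, mRpS17 at -0.12, mRpS30 at -0.10, mRpL54 at -0.09 and mRpL14 at -0.07, with limma adjusted p from 0.80 to 0.93. Without that control array mRpL48 had -0.09, mRpS17 -0.07, mRpS30 -0.11, mRpL54 0.00 and mRpL14 -0.03. The name of mRpS30 points to the small subunit, but in mammals its product sits in the large one.

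**Figure D1:**
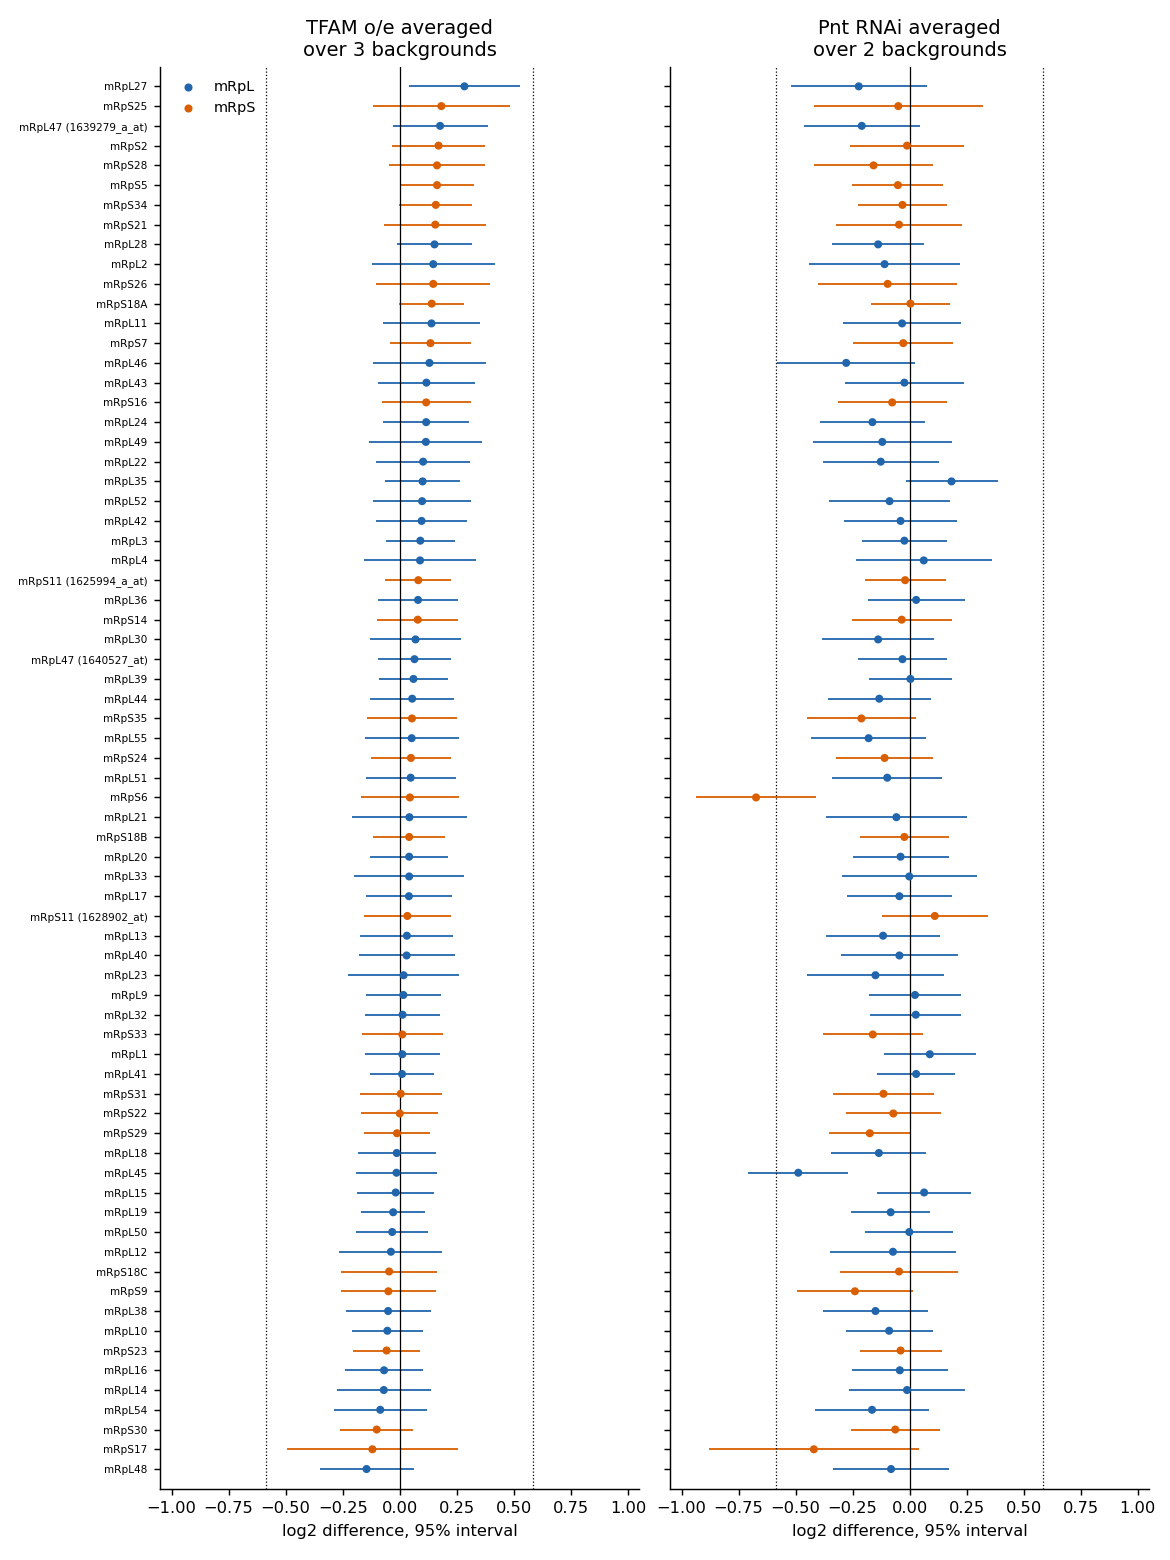
Log2 difference of each of the 71 member probe sets (points) with its 95% interval (lines) for TFAM o/e averaged over 3 backgrounds (left) and Pnt RNAi averaged over 2 backgrounds (right), sorted by the left panel, with dotted lines at a 1.5-fold difference. All intervals on the left lie within the dotted lines, and on the right mRpS6 (-0.67) and mRpL45 (-0.49) are the members whose intervals lie wholly below 0.

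The 2 genes that stood apart did so with the label Pnt RNAi. For mRpS6 (Dmel_CG15016, chromosome arm 3L), a small subunit protein whose bacterial counterpart lies on the platform of the subunit, arrays with the label TFAM o/e, Pnt RNAi had 9.48, 9.96 and 10.34, against 10.62, 10.56 and 10.53 in TFAM o/e. Those labelled Pnt RNAi had 10.02, 9.90 and 9.95, against 10.57, 10.52 and 10.89 in the control. Both groups with the knock-down lay wholly below their partners, and the spread was widest where TFAM overexpression and the knock-down were combined. The remaining genotypes had 10.39, 10.74 and 10.25 in TFAM o/e, Aop RNAi and 10.20, 10.08 and 10.34 in Aop RNAi, the second of these wholly below the control.

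Averaged over its 2 backgrounds, mRpS6 was lower with the label Pnt RNAi by a log2 difference of -0.67 ± 0.13 (SE), 0.63-fold with a 95% interval of 0.52 to 0.75 (limma adjusted p = 0.021). It was the only one of the 71 members past the adjusted test in the 14 comparisons of the design (1 of 71 in this comparison, all probe sets 0.304%), and 2 of 71 had an unadjusted p under 0.05 (all probe sets 6.78%). Set against each partner alone, the differences were -0.64 ± 0.18 from TFAM o/e (adjusted p = 0.39) and -0.70 ± 0.18 from the control (adjusted p = 0.16, both SE and limma). The call was lost without the third control array (-0.62, adjusted p = 0.055), and in turn without each of 5 other arrays, the first or the second of TFAM o/e, the second or the third labelled Pnt RNAi, or the second of TFAM o/e, Pnt RNAi, with differences from -0.68 to -0.66 and adjusted p from 0.054 to 0.065. With centred arrays the difference was again -0.67 and the limma adjusted p was 0.17.

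For mRpL45 (Dmel_CG6949, chromosome arm 3R), a mitochondria-specific large subunit protein that in mammals lies by the exit of the polypeptide tunnel, arrays with the label TFAM o/e, Pnt RNAi had 9.37, 9.47 and 9.27, against 9.88, 10.09 and 10.17 in TFAM o/e. Those labelled Pnt RNAi had 9.56, 9.50 and 9.42, against 10.06, 9.74 and 9.58 in the control. All 6 arrays with that label were below all 12 others, the nearest pair being 9.56 and 9.58. The share of all probe sets separated in this way was not counted, and mRpL45 was named after its values had been seen. It had 9.81, 10.16 and 9.74 in TFAM o/e, Aop RNAi and 9.89, 10.15 and 10.19 in Aop RNAi. Its average difference over the 2 backgrounds was -0.49 ± 0.10 (SE, limma adjusted p = 0.054), which missed the threshold, and its difference within the TFAM o/e background was -0.68 ± 0.15 (SE, limma adjusted p = 0.11). The average passed without the third control array (-0.54, limma adjusted p = 0.03) and without the second of TFAM o/e, Aop RNAi (-0.49, adjusted p = 0.042).

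**Figure D2:**
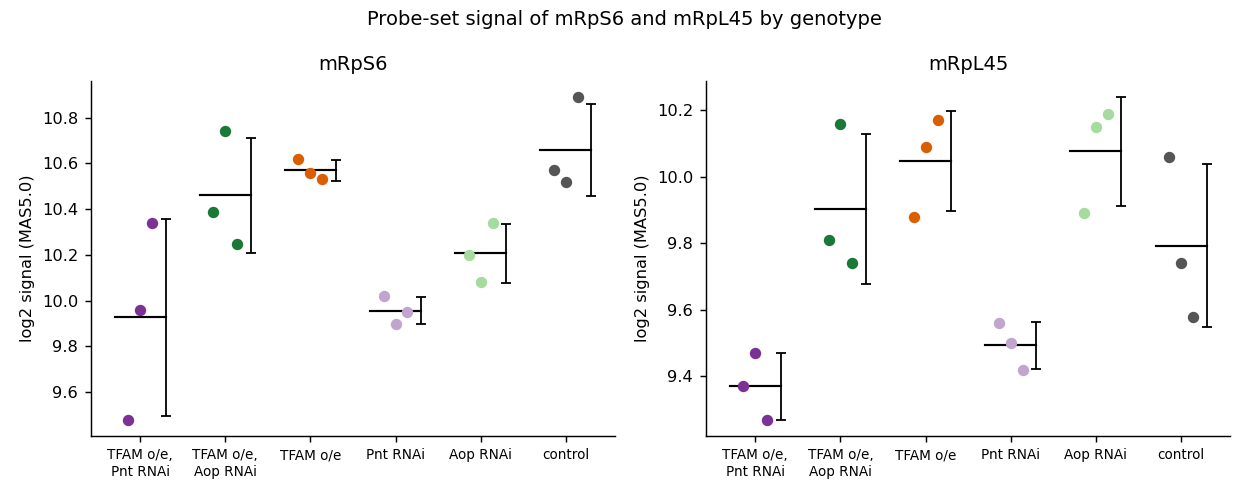
Log2 signal of mRpS6 (left) and mRpL45 (right) in each array (points, 3 per genotype), with the mean (horizontal line) and SD (error bar), for the combined genotypes, the single transgenes and the control. For mRpL45 the 6 arrays labelled Pnt RNAi or TFAM o/e, Pnt RNAi (9.27 to 9.56) lie below the other 12. The share of all probe sets separated in this way was not counted.

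Because both knock-downs were set against the same control and TFAM o/e arrays, a direct comparison was added after the values of mRpS6 and mRpL45 had been seen, the arrays labelled Pnt RNAi with and without TFAM overexpression against those labelled Aop RNAi with and without it. Here mRpL45 was lower by -0.56 ± 0.10 on the log2 scale (SE, limma adjusted p = 0.016, 95% interval -0.78 to -0.34), and it was the only member called (1 of 71, all probe sets 0.453%). For mRpS6 the difference was -0.39 ± 0.13 (SE, limma adjusted p = 0.37), so it was not shown to differ between the 2 knock-downs. At an unadjusted p under 0.05 there were 5 of 71 members, all lower (all probe sets 5.15% in either direction), with mRpL48 (-0.35), mRpS35 (-0.25) and mRpS31 (-0.24) beside these 2. The call of mRpL45 was lost in turn without each of 5 arrays, the third of TFAM o/e, Pnt RNAi, the second of TFAM o/e, Aop RNAi, the third labelled Pnt RNAi, or the second or the third labelled Aop RNAi, with differences from -0.54 to -0.49 and adjusted p from 0.052 to 0.062. With centred arrays it was -0.52 with a limma adjusted p of 0.18.

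Across the members as a whole, the arrays labelled Pnt RNAi had small differences from the control, mostly below 0. The median was -0.13 and 62 of 71 members were below 0, or 87.3% where 51.2% of all probe sets were (with centred arrays -0.05 and 66.2% of members). Of the probe sets in the members' range of signal 45.7% were below 0. With 1 array left out the median ran from -0.22, without the second control array, to -0.11. Yet 0 of 71 passed the adjusted test (limma, all probe sets 0.293%), and 5 of 71 had an unadjusted p under 0.05 (all probe sets 7.24%). These 5 were all lower (3.93% of all probe sets were lower at that p), namely mRpS6, mRpS17, mRpL38, mRpL30 and mRpL27. Without the third control array 4 members were at that p, mRpS6, mRpL45, mRpL18 and mRpL23. For 13 of 71 members all 3 arrays labelled Pnt RNAi lay below all 3 control arrays, against 6.97% of all probe sets. The 13 were 8 of the large subunit (mRpL18, mRpL19, mRpL22, mRpL24, mRpL27, mRpL30, mRpL38 and mRpL45) and 5 of the small (mRpS6, mRpS9, mRpS16, mRpS17 and mRpS29).

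The counterpart of bacterial S17, mRpS17, had the largest difference by size, with 9.78, 9.65 and 9.14 in the arrays labelled Pnt RNAi, against 10.47, 9.81 and 10.58 in the control. It was also the member with the widest spread between replicates, from 8.96 to 10.20 within TFAM o/e, Aop RNAi alone. The difference was -0.76 ± 0.31 (SE, limma adjusted p = 0.61). In the TFAM o/e background it had 10.09, 9.63 and 9.55 with Pnt RNAi as labelled, against 10.37, 9.65 and 9.48 without, and these groups overlapped.

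In that background the members had a median of 0.00 for TFAM o/e, Pnt RNAi against TFAM o/e, and 36 of 71 were above 0. No member passed the adjusted test (limma, 0 of 71, all probe sets 0.16%), and 2 of 71, mRpS6 and mRpL45, had an unadjusted p under 0.05 (all probe sets 4.6%). After centring each array on its median this comparison had a median of -0.08, so its sign depends on the scaling. The array medians used for this lie far below the members' signals. Members lower with the label Pnt RNAi and free of overlap in both backgrounds were mRpS6, mRpL45 and mRpS29 (3 of 71, all probe sets 0.629%). The last, a small subunit protein that binds GTP in mammals (DAP3), differed by -0.20 from the control (-0.09 without the third control array) and by -0.15 within TFAM o/e. Its groups were barely apart, with nearest values of 10.31 and 10.32 against the control and 10.22 and 10.23 within TFAM o/e. Over both backgrounds, which share no arrays, 30 members were below 0 in both and 4 above 0 in both, where 25.3% of all probe sets were below and 25.2% above in both.

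Set against the control, the combined genotype TFAM o/e, Pnt RNAi had a median member difference of -0.03 (0.02 without the third control array) and 0 of 71 members past the adjusted test (limma, all probe sets 0.325%). The 3 members with an unadjusted p under 0.05 (all probe sets 8.49%) were mRpS6 at -0.73, mRpL45 at -0.42 and mRpS29 at -0.31 (-0.20 without that array). The interaction, which asks whether the effect of TFAM overexpression differed between the arrays labelled Pnt RNAi and those without, called 0 of 71 members (limma, all probe sets 0.0266%), with 0 of 71 at an unadjusted p under 0.05 (all probe sets 4.42%). Its median of 0.13 became -0.03 after centring, which moved the median of all probe sets by -0.16. Intervals of the interaction were wider, and 34 of 71 stayed within 1.5-fold.

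Markers of 3 tissues attached to the nervous system also differed between arrays in these comparisons, with 0 of them past the adjusted test for Pnt RNAi averaged over its backgrounds (limma) and 1, of fat body, at an unadjusted p under 0.05. Of the 6 fat body markers listed, 3 were found (Fbp1, Fbp2 and Lsp2), and their mean log2 signal was 9.02 to 12.02 in TFAM o/e, Pnt RNAi and 9.84 to 12.17 in Pnt RNAi, against 8.83 to 10.43 in TFAM o/e and 8.97 to 10.03 in the control. The 6 salivary gland markers found had array means of 7.06 to 7.53 in TFAM o/e, Pnt RNAi and 6.74 to 8.51 in Pnt RNAi, against 7.17 to 10.40 in TFAM o/e and 6.06 to 8.99 in the control. Their median difference was -1.64 within TFAM o/e (6 of 6 below 0, 2 at an unadjusted p under 0.05) and 0.42 for Pnt RNAi compared with the control (6 of 6 above 0). The 6 ring gland markers found had 9.23 to 10.64 in TFAM o/e, Pnt RNAi and 8.44 to 9.69 in Pnt RNAi, against 8.18 to 10.35 in TFAM o/e and 6.50 to 9.83 in the control, with a median of 0.71 for the average over both backgrounds (6 of 6 above 0). The part of these tissues in the differences of mRpS6 and mRpL45 was not tested.

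The label Aop RNAi gave no call. Compared with the control the median member difference was -0.11, with 54 of 71 members below 0, where 47.9% of all probe sets were. In the members' range of signal 49.7% of probe sets were below 0. Without the third control array the median was -0.07. No member passed the adjusted test (limma, 0 of 71, all probe sets 0.176%) and 3 of 71 had an unadjusted p under 0.05 (all probe sets 5.73%), mRpS6 at -0.45, mRpL12 at -0.42 and mRpS29 at -0.30. Without the third control array these had -0.34, -0.13 and -0.19, and none of the 3 was at that p. In the TFAM o/e background the median was 0.01 (-0.03 after centring), with 0 of 71 past the adjusted test (limma, all probe sets 0.0959%) and 0 of 71 at an unadjusted p under 0.05 (all probe sets 3.41%).

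Averaged over its 2 backgrounds, the effect of Aop RNAi had a median of -0.04 and 0 of 71 calls (limma, all probe sets 0.197%). Of the 71 intervals 70 lay within 1.5-fold. The 2 members with an unadjusted p under 0.05 (all probe sets 4.87%) were mRpS6, with -0.28 (limma adjusted p = 0.98), and the mitochondria-specific mRpL48, with 0.27 (adjusted p = 0.98). Without the third control array they had -0.22 and 0.34. No member was lower and free of overlap in both backgrounds (0 of 71, all probe sets 0.234%). The combined genotype TFAM o/e, Aop RNAi had a median of 0.00 against the control, 0 of 71 calls (limma, all probe sets 0.229%) and 0 of 71 at an unadjusted p under 0.05 (all probe sets 6.11%). The interaction of TFAM overexpression and Aop RNAi called 0 of 71 members (limma, all probe sets 0.0533%), with 1, mRpS29 at 0.39, at an unadjusted p under 0.05 (all probe sets 3.99%) and 0 without the third control array.

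**Figure D3:**
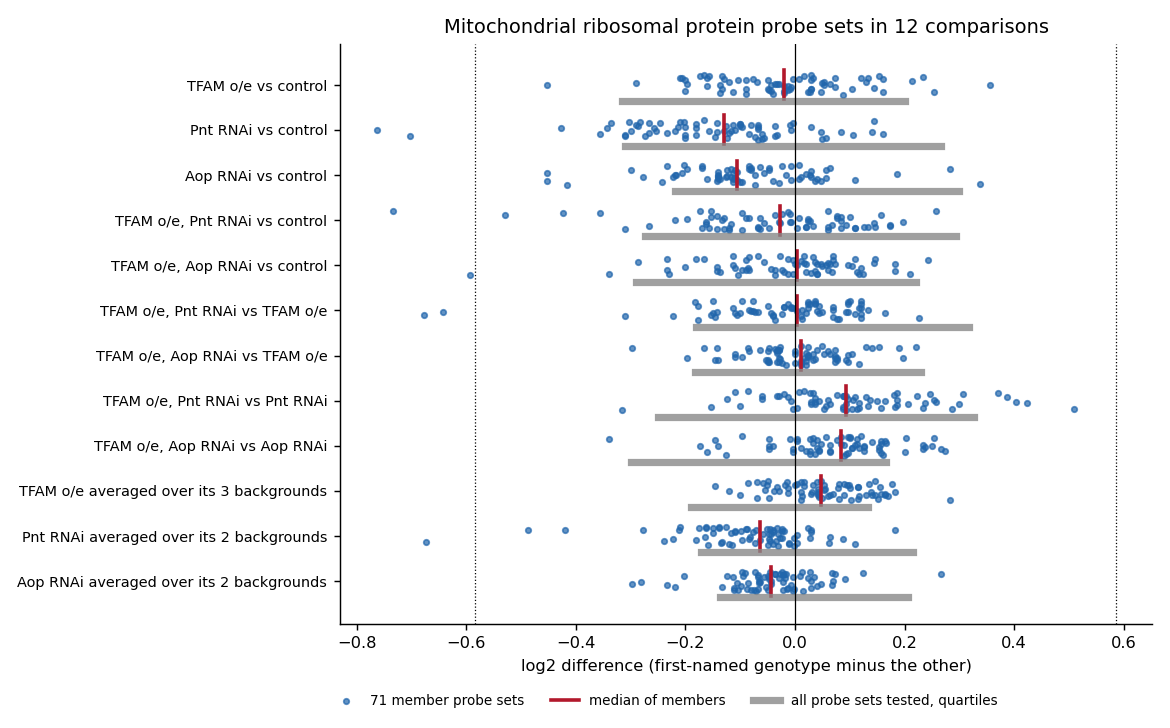
Log2 difference of the 71 member probe sets (blue points) in 12 comparisons, with their median (red line) and the quartiles of all 18769 probe sets tested (grey bar), dotted lines marking a 1.5-fold difference. Members cluster near 0 in every row, and mRpS6 and mRpL45 are the points at -0.64 and -0.68 in TFAM o/e, Pnt RNAi vs TFAM o/e.

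The 14 comparisons share arrays, so their medians are not separate evidence, and the members shifted as a block on single arrays. Each member was set against its own mean over the 18 arrays, and the median of these deviations was taken for every array. It was 0.06, 0.00 and -0.06 on the arrays of TFAM o/e, Pnt RNAi, and 0.20, 0.08 and -0.16 in TFAM o/e, Aop RNAi. In TFAM o/e it was 0.00, 0.05 and 0.03, in Pnt RNAi -0.14, -0.15 and 0.03, in Aop RNAi 0.02, -0.04 and -0.14, and in the control 0.13, -0.10 and 0.12. The widest range within a genotype was 0.35, in TFAM o/e, Aop RNAi, and the genotype means differed by at most 0.14. Within-genotype differences between arrays made up 71.2% of the members' variation, and 43.7% of that lay along 1 shared component. With 12 residual degrees of freedom among 18 arrays, most variation would lie within genotypes even if genotypes did not differ.

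Some arrays were high or low for most members at once. On the first array of TFAM o/e, Aop RNAi 65 of 71 members were above their own mean, and on the third of the same genotype 6 of 71 were. The third control array held the highest value of 18 members and the lowest of 8. For mRpL12, the stalk protein whose bacterial counterpart recruits translation factors, it held the highest, 12.40 beside 11.59 and 11.46 in the other controls. For mRpL4, whose bacterial counterpart lines the exit tunnel, it held the lowest, 9.05 beside 10.06 and 9.80 in the other controls. Neither gene had a value as far from the rest on any of the other 15 arrays, where mRpL12 ran from 11.27 to 11.76 and mRpL4 from 9.54 to 10.03.

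**Figure D4:**
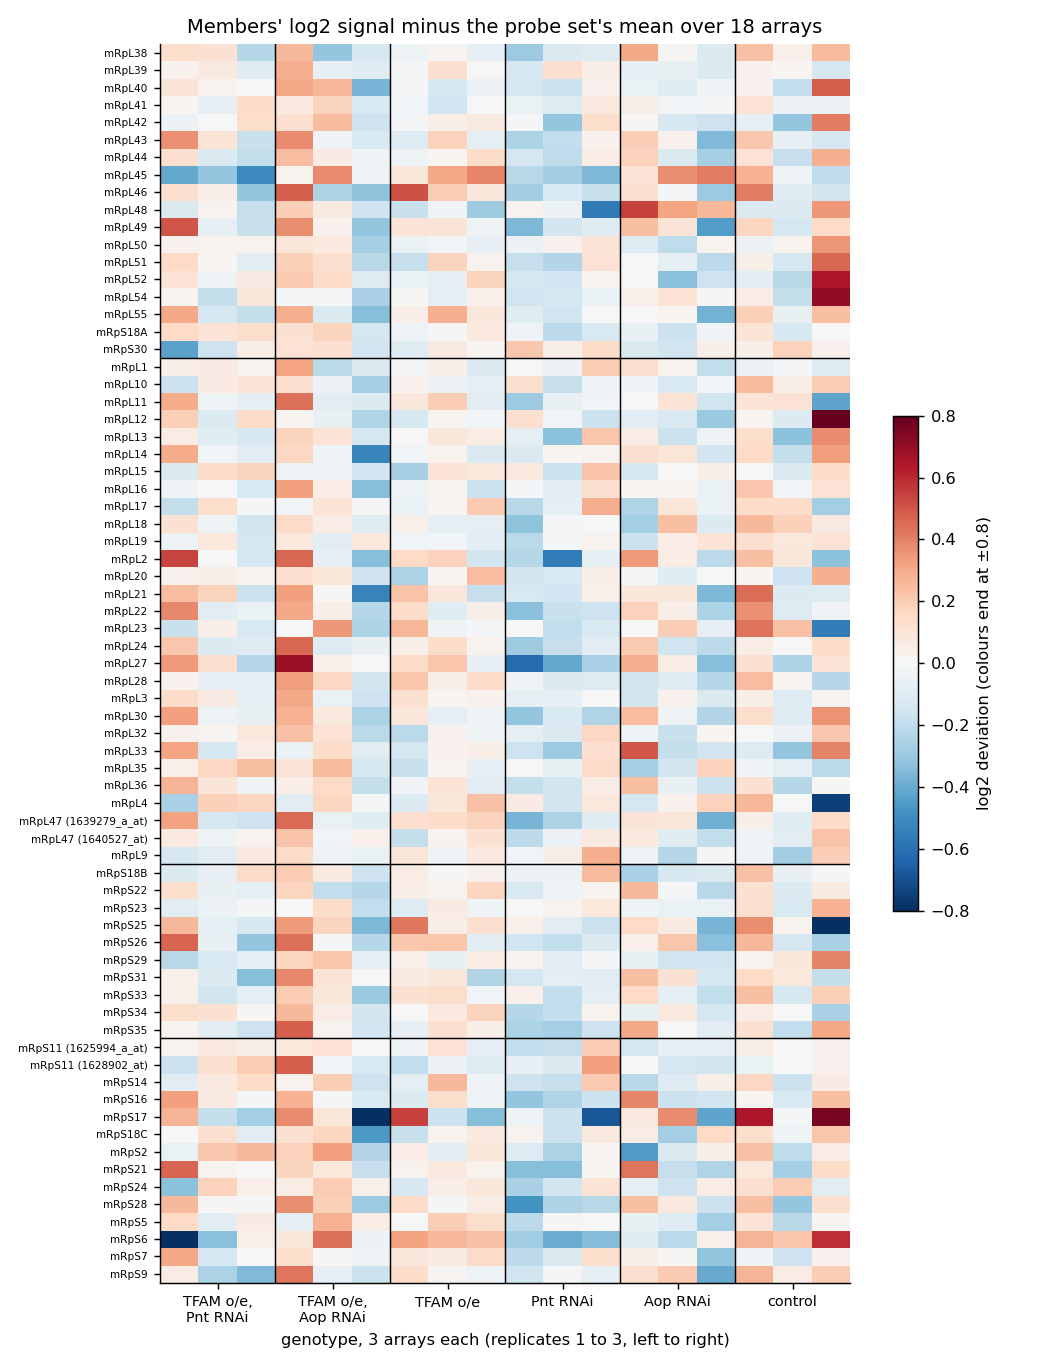
Log2 signal of each member probe set (rows, in 4 blocks from the top: large subunit mitochondria-specific, large subunit with a bacterial counterpart, small subunit mitochondria-specific, small subunit with a bacterial counterpart) minus its mean over the 18 arrays (columns, by genotype), red above and blue below. Some columns are mostly red or mostly blue, such as the first and the third of TFAM o/e, Aop RNAi, while mRpL45 is blue in all 6 arrays labelled with Pnt RNAi and mRpS6 in 5 of them.

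Other nuclear gene groups of energy metabolism and protein synthesis varied more between arrays. The group called respiratory chain here holds 81 probe sets with symbols beginning with ND-, COX, ATPsyn, UQCR or Sdh, so ATP synthase is included. It had array medians from -0.26 to 0.38, and the 47 probe sets of cytosolic ribosomal proteins from -0.48 to 0.90, where the members ran from -0.16 to 0.20. In the arrays labelled Pnt RNAi against the control, the medians were -0.25 for the respiratory chain (77 of 81 below 0), -0.28 for cytosolic ribosomal proteins (40 of 47 below 0) and -0.13 for the members. None of these respiratory chain or cytosolic probe sets passed the adjusted test in that comparison (limma, 0 of 81 and 0 of 47), with 11 and 2 at an unadjusted p under 0.05. The first and second arrays labelled Pnt RNAi were low in all 3 groups, with array medians of -0.14 and -0.15 for the members, -0.26 and -0.19 for the respiratory chain and -0.32 and -0.25 for the cytosolic group. Their 3' minus 5' values were 1.88 and 1.54, while the third control array, in the same comparison, had 3.19. That control array also had the highest control medians, 0.38 for the respiratory chain and 0.74 for the cytosolic group. The other controls had 0.06 and -0.13 for the respiratory chain, and -0.23 and -0.36 for the cytosolic group. The remaining array labelled Pnt RNAi had -0.03 and -0.07. In the cytosolic group, only that control array lay above every array labelled Pnt RNAi. Differences of these groups without it were not computed. The part of RNA quality in the differences of the respiratory chain and cytosolic groups was not tested.

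**Figure D5:**
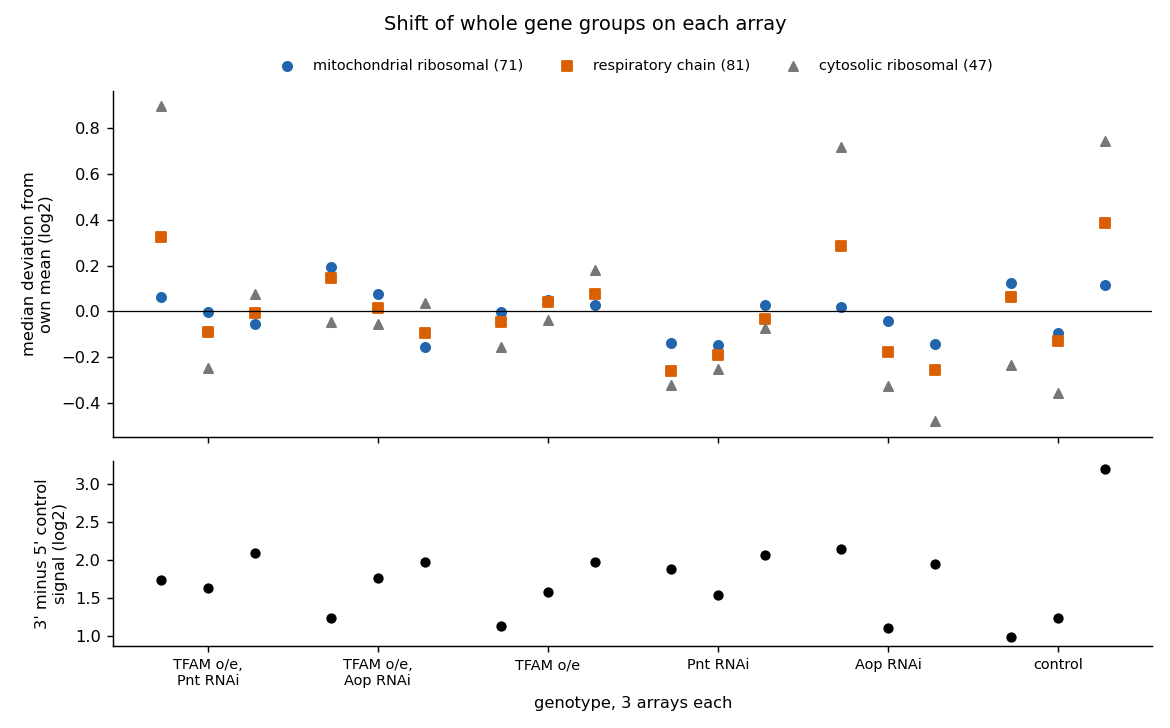
Median log2 deviation of 3 gene groups from their own means on each array (points by genotype, upper panel) and mean log2 difference between 3' and 5' RNA quality probes (lower panel). The members stay within 0.20 of 0 while the other groups reach 0.38 and 0.90, and the third control array is highest in the lower panel at 3.19.

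The 4 classes of members had similar medians, with mRpS18A and mRpS30 counted in the large subunit as in mammals. Averaged over its backgrounds, TFAM overexpression gave medians of 0.04 for the 29 large subunit probe sets with a bacterial counterpart, 0.05 for the 18 mitochondria-specific ones, 0.08 for the 14 small subunit probe sets with a bacterial counterpart and 0.03 for the 10 mitochondria-specific ones, with 0 calls in each. For the label Pnt RNAi against the control the same classes had -0.12, -0.20, -0.16 and -0.09, again with 0 calls, and these medians were not tested against each other. Among the mitochondria-specific members, mRpS22 averaged 10.54 ± 0.08 in TFAM o/e and 10.49 ± 0.12 in the control, and mRpL50 averaged 11.17 ± 0.02 in TFAM o/e and 11.33 ± 0.21 in the control (SD, n = 3 each).

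Where a gene had 2 probe sets, they agreed in part. Across the 18 arrays the pair of mRpL47 had a Pearson r of 0.67 and that of mRpS11 a Pearson r of 0.55, given as descriptions, since the arrays share genotypes and array-wide shifts. The average effect of TFAM overexpression was 0.18 in one probe set of mRpL47 and 0.06 in the other, and 0.08 and 0.03 for mRpS11. None of the 4 was called.

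Genes of the mitochondrial ribosome whose symbols do not begin with mRp gave no call either. The product of tko is the small subunit protein of the decoding centre, and tko mutants are known for seizures after mechanical shock. Its probe set averaged 10.53 ± 0.06 in TFAM o/e and 10.59 ± 0.25 in the control (SD, n = 3 each), with an average TFAM effect of 0.03 (limma adjusted p = 0.97). The small subunit gene bonsai, known for growth defects, averaged 11.12 ± 0.08 in TFAM o/e and 11.08 ± 0.02 in the control (SD, n = 3 each), with an average TFAM effect of 0.05 (limma adjusted p = 0.93).

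The factors that work with the ribosome also gave no call in the 14 comparisons. Of 33 listed genes of mitochondrial transcription, RNA handling and translation, 21 were found on 22 probe sets, and TFAM overexpression averaged over its backgrounds gave a median of -0.02, with 0 of 22 called (limma) and 1 at an unadjusted p under 0.05. Of 18 mitochondrial aminoacyl-tRNA synthetases, which charge the tRNAs of the organelle, 15 were found, with a median of -0.10 and 0 of 15 called (limma), 1 of them at an unadjusted p under 0.05. The smallest p in these lists belonged to the initiation factor gene mIF2, at -0.65 for the average of Aop RNAi (limma adjusted p = 0.20). Lrpprc2, of a family that handles mitochondrial transcripts, followed with -0.59 for TFAM o/e, Pnt RNAi compared with the control (adjusted p = 0.28) and -0.51 for TFAM o/e compared with it (adjusted p = 0.63).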

How the data were processed

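Labelled cDNA from 18 RNA samples was hybridised to Affymetrix Drosophila Genome 2.0 arrays. The authors processed the scans with MAS5.0 in the Transcriptome Analysis Console and deposited log2 signals per probe set, which were used as deposited. No scanner files were used, so background and detection calls could not be revisited, and 0 value columns were without a sample. Of 18952 probe sets 183 array controls were left out. Symbols came from the platform table, updated by Entrez identifier through RefSeq (13646 probe sets with 1 symbol, 402 with several, 4721 with none), and the pnt probe set from a table of the study. All genotypes were fitted in 1 limma model with an intensity trend (limma 3.58.1, R 4.3.3, figures with matplotlib 3.10.9), p-values were adjusted by Benjamini-Hochberg over the 18769 probe sets, and 14 comparisons were made. Samples are described as triplicate preparations, so p-values measure the spread between these preparations, and 3 arrays a genotype limit the precision. The model was run on simulated data with independent noise for each probe set and array. Such data hold no shared shifts of arrays, so the p-values were not tested against those. The members and lists were chosen with earlier results of these data known. Named were members past an adjusted p of 0.05, those with an unadjusted p under 0.05 and a 1.5-fold difference, the 5 largest averages of TFAM o/e each way, the 5 highest and lowest signals, genes with 2 probe sets, mRpS6 (listed in a table the study drew from these same arrays) and a few genes of fixed role. The others, mRpL45 among them, were named after their values were seen. Alternatives were quantile normalization, median centring, a minimum mean log2 of 6, a floor at log2 5, no intensity trend, fits of the compared arrays alone, a replicate block, the unpaired one-way test of 2 groups named in the methods, each array left out, and a 3'/5' covariate. The direct comparison of the knock-downs and this covariate were added after the data were seen.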

Additional observations from a re-analysis of the deposited data

Results flagged for a closer look

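The difference of mRpL45 between the 2 knock-downs passed a test of that difference itself. Averaged over their backgrounds, the arrays labelled Pnt RNAi were lower than those labelled Aop RNAi by a log2 difference of -0.56 (limma adjusted p = 0.016, lower in 6 of 6 arrays than in every one of the 6 others). The comparison was chosen after the values had been seen, and the share of all probe sets separated in this way was not counted. Over its alternatives the difference ran from -0.61 to -0.49 and the adjusted p from 0.0067 to 0.18.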

How the results depend on the processing

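With 3 arrays a genotype, the median 95% interval of a member reached 0.33 on the log2 scale to either side for 2 genotypes and 0.19 for the average of TFAM o/e, which limits what could be detected, less so for members of small spread. Under settings other than leaving out an array, 127 of 138 counts of members called stayed within 1.5 times the main count. Most main counts were 0, so this share mostly says that 0 stayed 0. For Pnt RNAi averaged over its 2 backgrounds, 7 of 8 such settings changed the count. Of the medians, 88 of 90 moved by less than 0.11, the SD of the members' median between arrays. The sign changed in 5 of these 90, all under median centring, and in 16 of 132 with 1 array left out. For Pnt RNAi averaged over its 2 backgrounds, 1 member was called, 2 under quantile normalization, a minimum mean log2 of 6 or the 3'/5' covariate, and 0 under median centring, the floor at log2 5 or without an intensity trend (mRpS6 adjusted p 0.17, 0.06 and 0.098), with 0 to 2 when 1 array was left out. The direct comparison of the knock-downs had 1 call, 0 under median centring and 0 without the trend, and 0 to 1 with an array left out, and the combined genotype TFAM o/e, Pnt RNAi compared with the control had 0 to 1, the call being mRpS6 without the third array of TFAM o/e, Pnt RNAi. The unpaired one-way test of the study's methods called 0 members after adjustment in all 9 pairwise comparisons, and at an unadjusted p under 0.05 with a 1.5-fold change it called 1 for Pnt RNAi against the control (mRpS6) and 1 for TFAM o/e, Pnt RNAi against TFAM o/e (mRpL45). Median centring gave 0.19 for TFAM o/e, Aop RNAi against Aop RNAi and -0.033 for the interaction of TFAM o/e and Pnt RNAi, and leaving out an array gave -0.005 to 0.19 for that first median and 0.012 to 0.212 for the interaction with Aop RNAi, each lowest without the first array of TFAM o/e, Aop RNAi and highest without the third. The cause of these changes was not tested. Replicate numbers were shared by number alone: deviations of same-numbered arrays correlated between -0.14 and 0.47, all 3 above 0.1 in 2 of 9 comparisons. With the replicate number as a block, 2 members were called for Pnt RNAi averaged over its 2 backgrounds, mRpS6 and mRpL45 (adjusted p = 0.045), and counts of members called in the other comparisons did not change.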
